A study of Mus musculus with 8 samples.

Results

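Angptl4, Angptl8, Lipc, Lcat, Pltp, Scarb1, Abca1, Lrp1 and Sort1 encode proteins that inhibit lipases, remodel plasma lipoproteins or take lipoproteins up into cells. These 9 genes were chosen by function and found by their symbols among the 52636 genes of the deposited files. Their RNA was measured in whole liver of C57BL/6 mice at 8 weeks of age. In the WT group, of 4 libraries, both Ctcf alleles were flanked by loxP sites and Cre was absent (CTCF fl/fl Albcre-). In the cKO group, of 4 libraries, the same floxed alleles were combined with Cre under the albumin promoter (CTCF fl/fl Albcre+), which is active in hepatocytes. Floxed Ctcf is therefore shared by both groups, and since neither group carried Cre without floxed Ctcf, Cre and deletion cannot be told apart. The labels give replicate numbers without naming separate mice, so p-values reflect only how these samples vary, which may in part be technical. The labels name neither a feeding state nor a time of collection.

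The liver secretes lipoproteins and also clears them. Lipoprotein lipase in the capillaries of other tissues removes triglyceride from circulating particles, and it is held back by ANGPTL4, a protein known for its induction by fasting and by PPAR receptors, and by a complex that contains ANGPTL8, which is induced by feeding. Hepatic lipase (Lipc) trims the lipids of remnant particles and HDL, LCAT esterifies the cholesterol of HDL, and PLTP moves phospholipid between particles. ABCA1 loads cholesterol onto new HDL, SR-BI (Scarb1) takes cholesteryl ester from mature HDL, LRP1 takes up remnants, and sortilin (Sort1) sorts proteins, apoB-containing particles among them, between the Golgi, the cell surface and lysosomes.

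None of the 9 genes was called higher in cKO livers and 4 were called lower, namely Angptl8, Lipc, Lcat and Sort1 (edgeR quasi-likelihood test, Benjamini-Hochberg adjusted p under 0.05 over 15562 genes tested). All 9 genes passed the filter on low counts. Of all genes tested, 15.3% were called higher and 15.1% lower. Angptl8 had the largest fold difference, to 33.7% of its WT mean in CPM (counts scaled to a common library size). Lipc, Sort1 and Lcat came to 72.2%, 73.8% and 84.3% of theirs. The other 5 genes missed the threshold, Scarb1 by the least (adjusted p = 0.0572). The median log2 change of the 9 was -0.20, beside -0.01 over all genes tested. At an unadjusted edgeR p under 0.05 there were 6, 1 of them higher (Scarb1) and 5 lower. The share of all genes at that threshold was not counted, so this number has nothing to stand beside. DESeq2 called 1 higher and 4 lower, and limma-voom 0 and 4. Over the 15562 genes, DESeq2 called 2563 higher and 2450 lower, and limma-voom 2363 and 2343. The same 4 genes were those for which every cKO library lay below every WT library, a pattern shown by 15.6% of all tested genes. No member had every cKO library above every WT library, as 15.0% of genes did.

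**Figure D1:**
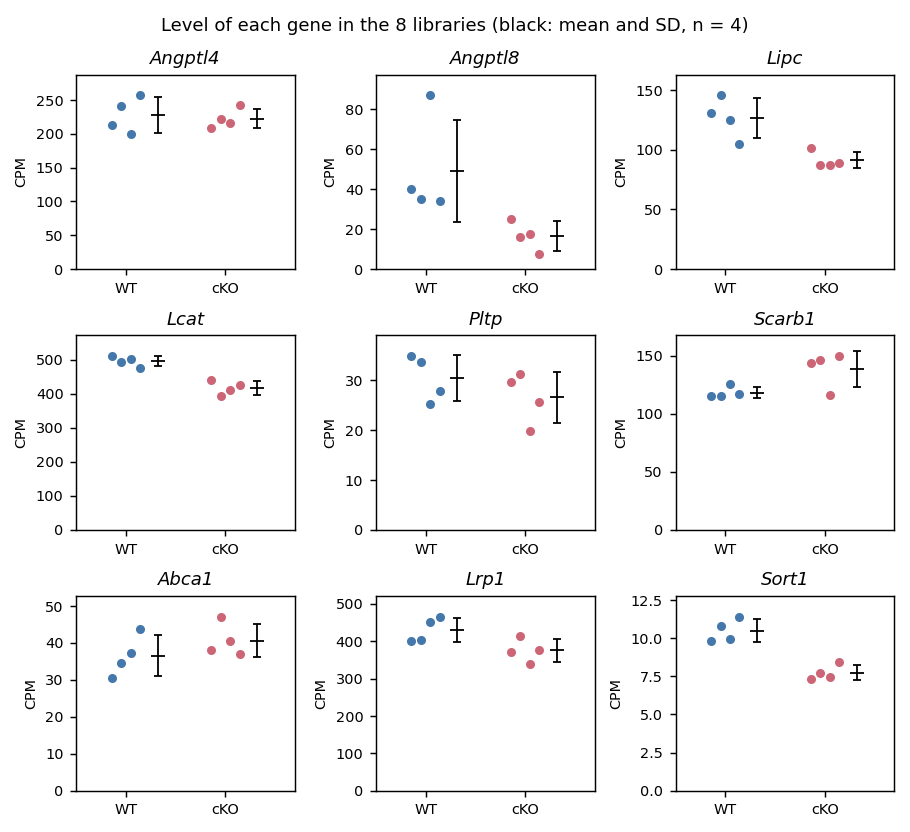
Level of each of the 9 genes in CPM (linear axis from 0) in the 4 WT libraries (blue) and the 4 cKO libraries (red), with black marks for the mean and SD. Angptl8, Lipc, Lcat and Sort1 show no overlap between the groups, and 1 WT library stands at 87.0 CPM for Angptl8 while the others lie between 34.3 and 40.2.

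Libraries held 43.9 M to 57.3 M assigned counts. Ctcf itself averaged 16.5 ± 0.41 CPM in the WT libraries and 12.2 ± 0.95 CPM in the cKO libraries (SD, n = 4 each; log2 change -0.44, adjusted p = 0.00202), a partial decrease in whole liver. On the TPM scale, which divides by length and by the sum over all genes, the Ctcf change missed the threshold (adjusted p = 0.134). All 8 markers of hepatic stellate cells were called higher in cKO, and their summed level was 254 to 278 CPM in WT and 443 to 582 CPM in cKO. Of 8 hepatocyte markers, 4 were called lower (Ttr, Serpina1c, Fgb and Hnf4a) and Cps1 higher, with summed levels of 71447 to 98894 CPM in WT and 85762 to 97517 CPM in cKO. In whole liver, fewer cells of a type and less RNA per cell cannot be told apart. White fat also makes Angptl4 and Angptl8. Its 4 markers together came to between 0.038 and 0.18 CPM in a library, and Lep was at 0 in all 8.

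Angptl8 (ENSMUSG00000047822) lies on chromosome 9 at 21835510 to 21837347 in GRCm38, the assembly also called mm10. The WT libraries held 40.2, 34.9, 87.0 and 34.3 CPM and the cKO libraries 25.2, 16.1, 17.5 and 7.31 CPM. The groups did not overlap, but the spread was wide within both: WT replicate 3 stood far above every other library, cKO replicate 4 was the lowest, and the highest library held 11.9 times the lowest. Mean levels were 49.1 ± 25.4 CPM in WT and 16.5 ± 7.35 CPM in cKO (SD, n = 4 each). The log2 change was -1.57 (SE 0.48, adjusted p = 0.0491). The call sits at the threshold and was lost in 13 of 21 alternative settings, with adjusted p from 0.00718 to 0.107. Among these, leaving out any 1 of the WT libraries or cKO replicate 2, 3 or 4 ended it, and the older form of the same edgeR test gave 0.0516. Without WT replicate 3 the log2 change was -1.14 (adjusted p = 0.0857). In all 21 settings the change was below 0.

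Angptl8 lies wholly within the span of Dock6 (chromosome 9, 21800180 to 21852718), a gene for an exchange factor of small GTPases. This overlap is of gene spans, and exons were not compared. No source used here says whether reads were counted by strand, so reads of the 2 genes cannot be told apart with certainty. Dock6 held 25.4, 19.9, 23.1 and 14.8 CPM in WT and 20.4, 20.8, 18.0 and 19.1 CPM in cKO, and was not called (log2 change -0.09, adjusted p = 0.66). The log2 ratio of Angptl8 to Dock6 within a library was 1.15 ± 0.56 in WT and -0.37 ± 0.73 in cKO (SD, n = 4 each). Every cKO ratio lay below every WT ratio (two-sided exact permutation test with p = 0.0286, the lowest that 70 assignments allow; 0.103 adjusted over 9 ratios, of which 6 are reported).

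Angptl4 (chromosome 17, 33774900 to 33781575), by contrast, lay at similar levels in both groups. It held 214, 242, 200 and 257 CPM in WT and 209, 222, 216 and 243 CPM in cKO. The cKO values all fell within the WT range. Its log2 change of -0.03 (SE 0.09, adjusted p = 0.802) changed sign between scalings, with 0.07 by library size alone and 0.13 on the TPM scale, and no setting called it.

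Likeness across the 8 libraries was measured as the root mean square difference of mean-centred log2 CPM, over the 8753 genes with a mean of 5 CPM or more that do not carry a predicted or clone-based symbol. Among the 2 genes closest to Angptl8 was Mug-ps1, a murinoglobulin pseudogene, at a distance of 0.44 log2 units where the profile of Angptl8 itself spans a root mean square of 0.99. Mug-ps1 held 201, 150, 274 and 167 CPM in WT and 75.2, 104, 74.0 and 57.1 CPM in cKO. Like Angptl8 it was highest in WT replicate 3 and lowest in cKO replicate 4, and its log2 change was -1.35 (adjusted p = 0.00484). Reads of murinoglobulin genes and pseudogenes are alike and may have been divided between them. Srebf1, a regulator of lipogenic genes, was not among the 2 closest genes but was highest and lowest in the same libraries as Angptl8. It held 29.1, 35.9, 50.7 and 27.3 CPM in WT and 23.3, 19.6, 18.1 and 15.9 CPM in cKO (log2 change -0.89, adjusted p = 0.013).

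**Figure D2:**
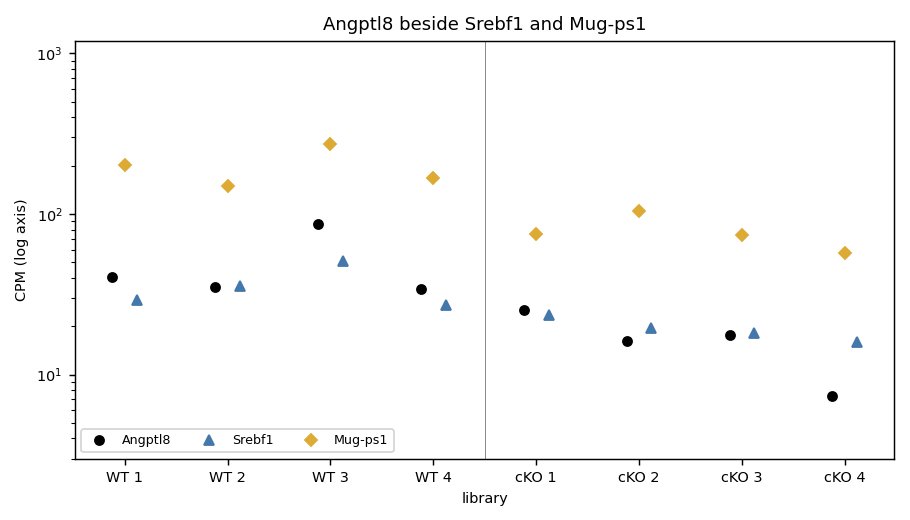
CPM (log axis) of Angptl8, Srebf1 and Mug-ps1 in each of the 8 libraries, WT left of the line and cKO right of it. All 3 genes are highest in WT replicate 3 and lowest in cKO replicate 4.

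Lipc (ENSMUSG00000032207; chromosome 9, 70798128 to 70952221) encodes hepatic lipase. It held 131, 146, 125 and 105 CPM in WT and 102, 87.8, 87.1 and 89.2 CPM in cKO. The lowest WT library, replicate 4, lay just above the highest cKO library, replicate 1. The log2 change was -0.47 (SE 0.10, adjusted p = 0.00486), and the call held in all 21 alternatives (log2 change -0.55 to -0.31). Lpl, which encodes lipoprotein lipase, is made in liver mostly by cells other than hepatocytes. It held 10.8, 11.3, 9.58 and 16.6 CPM in WT and 14.9, 18.0, 14.0 and 19.1 CPM in cKO and was not called (log2 change 0.46, adjusted p = 0.0658), although 7 of 21 alternatives did call it. The log2 ratio of Lipc to Lpl averaged 3.42 ± 0.50 in WT and 2.48 ± 0.27 in cKO (SD, n = 4 each). WT replicate 4, at 2.66, fell among the cKO values, and the test gave p = 0.0571 (exact permutation test; 0.103 adjusted).

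Lcat (ENSMUSG00000035237; chromosome 8, 105939551 to 105943402) was the most abundant of the 9 genes and the least variable in WT. It held 511, 493, 502 and 476 CPM in WT and 440, 394, 410 and 427 CPM in cKO. The groups were separated by a gap wider than the SD of either, 14.8 CPM in WT and 19.9 CPM in cKO. The log2 change was -0.25 (SE 0.07, adjusted p = 0.0177). This small change depended on the scaling: it was -0.14 by library size alone (adjusted p = 0.14), -0.17 without the 20 most abundant genes in the library size (adjusted p = 0.1) and -0.06 on the TPM scale (adjusted p = 0.459). Leaving out cKO replicate 2 or 3 also ended the call, with adjusted p of 0.0636 and 0.056. The lowest coordinate of Lcat lies 257 kb beyond the highest coordinate of Ctcf on the same chromosome.

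Pltp (chromosome 2, 164839518 to 164857708) held 34.8, 33.8, 25.2 and 27.9 CPM in WT and 29.8, 31.2, 19.8 and 25.6 CPM in cKO. The groups overlapped, and replicate 3 was lowest in each. Its log2 change was -0.20 (SE 0.15, adjusted p = 0.356). At its end Pltp shares 1515 bases with Ctsa, a lysosomal carboxypeptidase gene, which held 227 ± 25.6 CPM in WT and 193 ± 9.61 CPM in cKO (SD, n = 4 each; adjusted p = 0.0625). Relative to Lcat, Pltp differed by a log2 ratio of 0.04 between the groups (exact permutation test, p = 0.886; 0.886 adjusted).

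RefSeq's GRCm38.p6 table of start sites held entries for 6 of the 9 genes, namely Angptl8, Lipc, Lcat, Pltp, Abca1 and Lrp1, each running from 250 bases before to 50 after a start. Those of 3 genes that were called lower are shown because they fell together and because CTCF is the protein deleted. Capitals mark 4 motifs searched on both strands: the CTCF core AGGNGGC, the nuclear receptor half-site AGGTCA, the E-box CACGTG and the sterol response element TCACNCCAC. The Angptl8 window is chr9:21835260-21835559 (plus strand), Lcat chr8:105943353-105943652 (minus strand), Lipc entry 1 chr9:70952172-70952471 and Lipc entry 2 chr9:70934759-70935058 (both minus strand).
Angptl8: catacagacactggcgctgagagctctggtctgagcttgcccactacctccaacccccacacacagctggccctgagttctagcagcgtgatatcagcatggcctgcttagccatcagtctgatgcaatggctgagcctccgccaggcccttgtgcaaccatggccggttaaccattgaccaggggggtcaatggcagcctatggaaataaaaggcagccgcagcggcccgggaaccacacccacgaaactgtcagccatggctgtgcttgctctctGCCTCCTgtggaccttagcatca
Lcat: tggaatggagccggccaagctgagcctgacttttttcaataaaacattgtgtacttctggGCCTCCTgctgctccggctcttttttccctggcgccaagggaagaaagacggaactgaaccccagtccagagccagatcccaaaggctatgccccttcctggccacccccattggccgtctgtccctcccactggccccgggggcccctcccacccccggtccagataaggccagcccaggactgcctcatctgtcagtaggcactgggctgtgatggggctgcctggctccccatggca
Lipc entry 1: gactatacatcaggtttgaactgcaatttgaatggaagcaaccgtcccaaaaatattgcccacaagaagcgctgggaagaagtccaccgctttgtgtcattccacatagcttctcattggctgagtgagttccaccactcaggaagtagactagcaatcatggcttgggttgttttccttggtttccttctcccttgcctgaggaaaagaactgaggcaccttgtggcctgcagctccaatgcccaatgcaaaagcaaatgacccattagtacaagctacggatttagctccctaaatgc
Lipc entry 2: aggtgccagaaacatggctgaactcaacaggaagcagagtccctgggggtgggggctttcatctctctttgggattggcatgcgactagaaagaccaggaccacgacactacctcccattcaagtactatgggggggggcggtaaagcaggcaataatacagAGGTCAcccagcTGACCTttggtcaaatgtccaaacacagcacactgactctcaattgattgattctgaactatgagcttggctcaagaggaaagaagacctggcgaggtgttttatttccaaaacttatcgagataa

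AGGNGGC stood once in the Angptl8 window, at position 28 after the start, and once in the Lcat window, at position -190, both times on the opposite strand. It was also in the windows of Abca1 and Lrp1, which were not called, and in 29.4% of the 32851 RefSeq start windows of that length. AGGTCA stood in opposite orientations at -88 and -76 of Lipc entry 2, and 16.3% of all windows hold it at least once. CACGTG was found only at -147 of Abca1 among the 6 genes (7.15% of all windows), and TCACNCCAC in none of their windows (1.24%). These are matches of letters, without any measure of binding.

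Scarb1 (chromosome 5, 125277087 to 125341094) held 115, 115, 125 and 117 CPM in WT and 144, 146, 116 and 150 CPM in cKO. In cKO, 3 of 4 libraries lay above every WT library, and replicate 3 lay within the WT range. The log2 change was 0.23 (SE 0.08, adjusted p = 0.0572). It passed the threshold in 8 of 21 alternatives, among them the one without cKO replicate 3 (log2 change 0.32, adjusted p = 0.00944) and the TPM scale. There the values were 53.4, 54.0, 57.0 and 54.5 TPM in WT and 74.1, 75.3, 63.0 and 81.0 TPM in cKO, without overlap (log2 change of TPM + 1 of 0.41, adjusted p = 0.00537).

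Abca1 (chromosome 4, 53030789 to 53159988) held 30.6, 34.5, 37.4 and 43.7 CPM in WT and 38.1, 47.0, 40.5 and 37.1 CPM in cKO. The groups overlapped, with a log2 change of 0.15 (SE 0.11, adjusted p = 0.313). On the TPM scale they did not: 3.50, 3.63, 4.02 and 4.66 TPM in WT and 4.79, 5.74, 5.14 and 4.77 TPM in cKO (log2 change of TPM + 1 of 0.31, adjusted p = 0.0328). The TPM scale moved the median log2 change of all genes by 0.16 and library size alone moved it by 0.11, both upwards in cKO. Relative to Scarb1, Abca1 differed by a log2 ratio of -0.06 (exact permutation test, p = 0.743; 0.836 adjusted), and relative to Abcg1, which encodes another cholesterol exporter, by -0.13 (p = 0.486; 0.624 adjusted).

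Lrp1 (chromosome 10, 127538157 to 127621148) held 402, 404, 451 and 465 CPM in WT and 371, 415, 339 and 376 CPM in cKO. Only cKO replicate 2 reached into the WT range. The log2 change was -0.20 (SE 0.08, adjusted p = 0.0926), and 1 of 21 alternatives called it, the offset for effective length (log2 change -0.25, adjusted p = 0.0256). Lrp1 and Abca1 are also expressed by stellate cells and macrophages. The stellate markers were higher in cKO, as given above. Of 6 markers of lipid-associated macrophages, 5 were called higher and 1, Spp1, lower (summed 43.8 to 56.7 CPM in WT and 55.6 to 88.6 CPM in cKO). Of 7 Kupffer cell markers, 1 was called higher (summed 201 to 309 CPM in WT and 171 to 273 CPM in cKO). The part of these cells in the values of Abca1 and Lrp1 was not tested.

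Sort1 (ENSMUSG00000068747; chromosome 3, 108283974 to 108361519) held the fewest counts per length of the 9 genes but varied little, with 384 to 494 expected counts per library. It held 9.80, 10.8, 9.95 and 11.4 CPM in WT and 7.35, 7.75, 7.45 and 8.42 CPM in cKO. The groups were separate. The log2 change was -0.44 (SE 0.09, adjusted p = 0.00407), and the call held in all 21 alternatives (log2 change -0.50 to -0.20). The -0.20 is a change of TPM + 1, which the added 1 shrinks at means of 1.89 TPM in WT and 1.51 TPM in cKO. On counts the weakest was -0.33, by library size alone. Sorl1, which encodes a sorting receptor of the same family, moved the other way, from 1.00, 1.20, 0.99 and 0.82 CPM in WT to 1.82, 1.34, 3.12 and 1.50 CPM in cKO (log2 change 0.96, adjusted p = 0.0215; lost in 3 of the 20 alternatives that gave a value). Every cKO library had a lower log2 ratio of Sort1 to Sorl1 than every WT library, with means of 2.07 ± 0.59 and 3.40 ± 0.27 (SD, n = 4 each; exact permutation test, p = 0.0286, the smallest possible; 0.103 adjusted). None of the 6 ratios reported passed after adjustment. With no p below 0.0286 by this exact test, a ratio could pass only if most of the ratios tested reached that value.

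**Figure D3:**
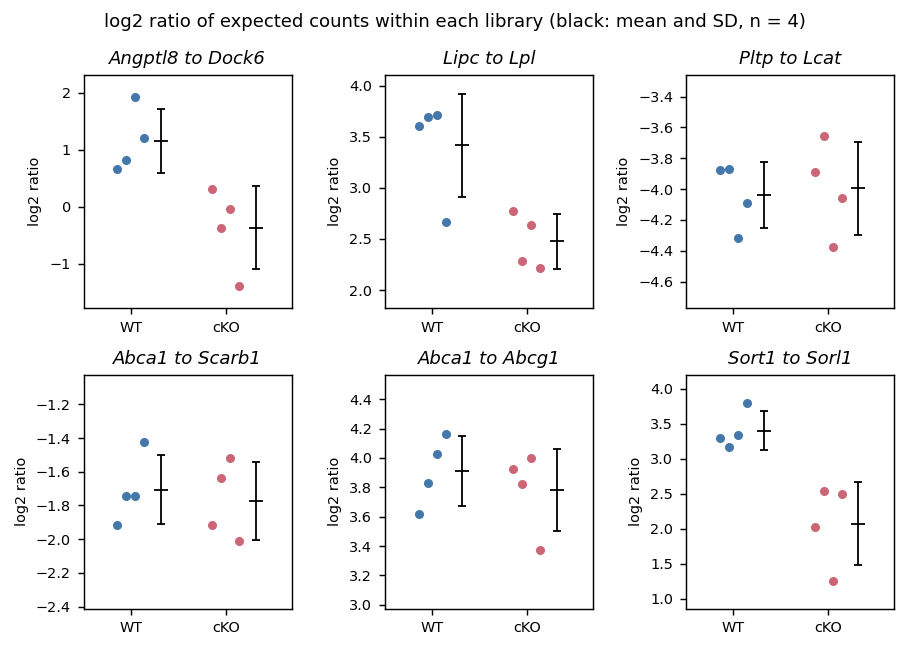
Ratio of each gene to a partner gene within each library, as log2 of expected counts, for 4 WT libraries (blue) and 4 cKO libraries (red), with mean and SD in black. The vertical axes do not start at 0. Angptl8 to Dock6 and Sort1 to Sorl1 are the 2 ratios without overlap.

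**Figure D4:**
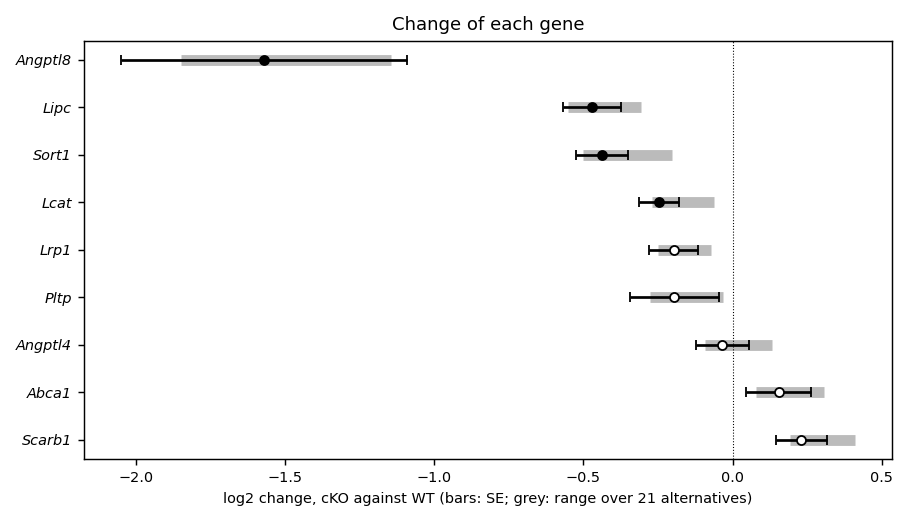
Log2 change of each gene in cKO against WT with its SE (points filled where adjusted p is under 0.05), over grey bars that span the values from 21 alternative settings. The value on the TPM scale is a change of TPM + 1, which is smaller for genes of low TPM such as Sort1. The grey bar crosses 0 for Angptl4 alone.

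Levels per length differed widely between the genes. In TPM, the WT means were 446 ± 12.2 for Lcat, 156 ± 8.45 for Lrp1, 139 ± 14.8 for Angptl4, 88.6 ± 10.7 for Lipc, 74.6 ± 37.7 for Angptl8, 54.7 ± 1.60 for Scarb1, 20.2 ± 3.19 for Pltp, 3.95 ± 0.52 for Abca1 and 1.89 ± 0.15 for Sort1 (SD, n = 4 each). Lcat thus stood 236-fold above Sort1. Neighbours in this order whose libraries overlapped were Lrp1 with Angptl4, Lipc with Angptl8, and Angptl8 with Scarb1. In cKO, Scarb1 (73.3 ± 7.50 TPM) and Lipc (71.2 ± 5.40 TPM) lay at overlapping levels, and Angptl8 (28.5 ± 12.4 TPM) stood next to Pltp (19.8 ± 3.47 TPM). The place of Lrp1 rests on an effective length of 2833 to 3124 bases, an average that RSEM weights by the estimated share of the gene's 10 transcripts. Its longest coding transcript in GENCODE M1 has 14888 bases, and 28.9 CPM per kilobase of that length would put it between Scarb1 (46.9) and Pltp (13.7).

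The effective length is also a measure of isoform use. For Sort1 it was 5775, 5706, 5853 and 5890 bases in WT and 5936, 6069, 6010 and 6317 bases in cKO, so that every cKO library gave the longer estimate, by 4.77% in the mean (exact permutation test, p = 0.0286; 0.129 adjusted over 9 genes). With each library's own median effective length divided out, the Sort1 groups remained separate (0.257 adjusted). For Scarb1 the mean was 16.1 bases shorter in cKO, of 2261, and the groups were apart by only 0.08 bases (p = 0.0286 by the same exact test; 0.129 adjusted), a gap that turned into overlap with the library medians divided out (0.257 adjusted). Among 9139 tested genes that averaged 5 CPM or more, 5.79% had every cKO library above and 3.10% below. The other 7 genes overlapped. Angptl8 and Lcat have a single transcript in the files, so that their effective lengths carry no information on isoforms, yet that of Angptl8 still ran from 679 to 692 bases between libraries.

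The genes nearest in profile to the other called members lay at smaller distances than Mug-ps1 from Angptl8. Lipc was nearest to Dvl3, a transducer of Wnt signals (distance 0.05 log2 units against a profile of 0.27), and to Med20, a Mediator subunit (0.07). Lcat was nearest to Suds3, a subunit of the Sin3 corepressor (0.03 against 0.13), and to Rtfdc1 (0.03). Sort1 was nearest to Tfr2, an iron-sensing receptor of hepatocytes (0.06 against 0.23), and to Ndrg2 (0.07). Tfr2 held 518 ± 16.7 CPM in WT and 381 ± 22.4 CPM in cKO (SD, n = 4 each; log2 change -0.44, adjusted p = 0.00117). All profiles share the same 8 libraries, and the likeness includes the difference between groups.

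Neighbours were taken by lowest coordinate, within 100 kb of the lowest coordinate of one of the 9 genes. Among the genes with start windows, that coordinate marks the end of the gene for Lipc, Lcat, Pltp, Abca1 and Lrp1, on the minus strand. For Angptl4, Scarb1 and Sort1, without a start window, the strand was not looked up. Their lowest coordinate may mark either end. Of 41 tested neighbours, 3 were called higher and 12 lower, beside 15.3% and 15.1% of all genes tested. Around Lcat, 10 genes were tested. Slc12a4, a potassium-chloride cotransporter gene, spans 105943590 to 105966149, just past the upper end of Lcat at 105943402. It was higher (log2 change 0.38, adjusted p = 0.00828), as was Cenpt (0.46, adjusted p = 0.0378). Psmb10, an immunoproteasome subunit gene, ends at 105938392, below the lower end of Lcat at 105939551. It was lower (-0.37, adjusted p = 0.0131), with Edc4 (-0.42, adjusted p = 0.00583) and Thap11 (-0.24, adjusted p = 0.0392). Around Angptl8, Rab3d was higher (0.42, adjusted p = 0.0265) and Tmem205 (-0.46, adjusted p = 0.00181) and Ccdc159 (-0.39, adjusted p = 0.0442) were lower, among 6 genes. The changes near both genes therefore went in both directions. Near Pltp, 3 of 11 genes were lower, namely Snx21 (-0.39), Neurl2 (-0.56) and Zfp335 (-0.46). Near Sort1, 2 of 4 were lower, Cyb561d1 (-0.48) and Atxn7l2 (-0.70). Ndufa7, a complex I subunit gene, was lower among 6 near Angptl4 (-0.32), and Shmt2, a mitochondrial serine enzyme gene, among 3 near Lrp1 (-0.36). The single gene near Abca1 was not called. Lipc and Scarb1 had no tested neighbour by this measure. The start windows of Lipc and Abca1 lie further than 100 kb from the lowest coordinate of their gene. Genes beyond those starts were therefore not counted. The calls of Ccdc159 and Thap11 were each lost in 12 of 21 alternatives and that of Atxn7l2 in 8. Those of the other 12 were lost in 0 to 6.

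Of the 14 tested genes reported here for other angiopoietin-like proteins, lipases and their maturation factors, a part of the list, 4 were called higher and 2 lower. Over all genes tested, 15.3% were called higher and 15.1% lower, the shares beside which this and the later list counts stand. Angptl2, a secreted relative associated with inflammation, rose (log2 change 0.92, adjusted p = 8.01e-05), from 6.72 ± 0.50 CPM in WT to 12.7 ± 1.11 CPM in cKO (SD, n = 4 each). Lipa, the lysosomal acid lipase gene, rose (0.47, adjusted p = 0.0028), as did Pcsk6, a proprotein convertase gene (0.37, adjusted p = 0.0052). Pcsk7, another proprotein convertase gene, was lower (-0.22, adjusted p = 0.0296; lost in 10 of 21 alternatives). The stellate markers rose in the same libraries as Angptl2, and their part in its change was not tested.

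Of 20 tested genes for HDL proteins and lipid exchange, 2 were called higher and 5 lower (median -0.09). Among the lower were Apoa2, a structural protein of HDL (-0.69, adjusted p = 0.00184), Apoc1, which activates LCAT in the test tube (-0.43, adjusted p = 0.0146), and Bmp1, the protease that matures apoA-I (-0.52, adjusted p = 0.000862). The antioxidant enzyme gene Pon3 was higher (0.26, adjusted p = 0.0162). Apoc1 lost its call in 2 of 21 alternatives and Pon3 in 1.

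Of the 15 tested lipoprotein receptor and adaptor genes reported here, which are a part of the list, 3 were called higher. Cd36, a scavenger receptor and fatty acid transporter related to SR-BI, had the largest change of them, from 10.1 ± 2.04 CPM in WT to 50.9 ± 3.84 CPM in cKO (SD, n = 4 each; log2 change 2.34, adjusted p = 4.43e-06). Lrp5, a Wnt coreceptor in the family of LRP1, was higher (0.45, adjusted p = 0.00221). Of 11 sorting receptor and coat genes, 3 were called higher, namely Sorl1, Vps35 of the retromer (0.64, adjusted p = 0.00157) and Igf2r (0.29, adjusted p = 0.0122), and Gga3, an adaptor that binds sortilin's tail, was lower (-0.36, adjusted p = 0.0162; lost in 5 of 21 alternatives). The median of the list was 0.16.

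Lists were also counted for receptors known to regulate members. Of 13 genes of LXR, a receptor that drives Abca1, 2 were called higher (Smpdl3a 0.63, adjusted p = 0.00586; Rnf145 0.41, adjusted p = 0.0102) and 2 lower (Srebf1 and, with adjusted p = 0.0406 and loss in 12 of 21 alternatives, Nr1h2), with a median of 0.10. Of 13 genes of PPARA, a known inducer of Angptl4, 7 were called higher and 1 lower (median 0.44). Ehhadh rose most among the named genes (1.15, adjusted p = 0.000538), and Plin2 (0.77, adjusted p = 0.000517), Cyp4a14 (0.63, adjusted p = 0.00708) and Cyp4a10 (0.59, adjusted p = 0.00289) also rose, whereas Vnn1 was lower (-0.37, adjusted p = 0.0359; lost in 11 of 21 alternatives). Angptl4 was within its WT range in CPM in the same 4 cKO libraries. Of the 11 lipogenic genes induced by feeding that are reported here, likewise a part of the list, 4 were called higher and 3 lower. Srebf1, Mlxipl and Fasn (-0.49, adjusted p = 0.00599) were lower, as Angptl8 was. Pklr, the liver pyruvate kinase gene (1.25, adjusted p = 0.0107), Elovl6 (0.98, adjusted p = 0.00191), Acaca (0.58, adjusted p = 0.00277) and Me1 were higher.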

How the data were processed

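Whole-liver RNA was sequenced in 4 WT and 4 cKO samples (Illumina TruSeq RNA kit, per the labels' protocols). Per the submitters' processing notes, STAR 2.5.1 aligned the reads and RSEM quantified them on mm10; annotation, strand setting and RSEM version are not stated there. The authors deposited RSEM expected counts, which share ambiguous reads between genes and need not be whole, and effective lengths (per the file headers). The authors' TPM, also deposited, divide those estimates by length and scale each library to the same sum. The deposited FPKM were not used.

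Expected counts were rounded, filtered with filterByExpr (minimum count 10, minimum total 15), scaled with TMM factors and compared with edgeR 4.0.16 (R 4.3.3) by a robust quasi-likelihood test with Benjamini-Hochberg adjustment over 15562 of 52636 genes. CPM use totals times TMM factors, and a standard error is the log2 change divided by the root of its F statistic. The current form of the quasi-likelihood fit (legacy off) was taken because an earlier account of these data used it, after the older form had been run first; Angptl8 has an adjusted p of 0.0491 in the one and 0.0516 in the other. For ratios and effective lengths, exact permutation tests (two-sided) ran over all 70 assignments (smallest p 0.0286). After adjustment over 9 ratios or 9 genes, none could pass unless most reached that p. A miss there does not show a lack of difference. Each library had 43.9 M to 57.3 M counts; intervals from counting are not given, since spread between samples exceeded them (chi-square per degree of freedom between replicates of 28.5 or more, so that each library was counted once).

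The members, gene lists and alternatives were chosen with earlier results of these data known. Named genes were all members, Ctcf, the partners in ratios and the 2 genes nearest in profile to each called member. Up to 4 genes of smallest p per list were also named, with the opposite-signed gene of smallest p if it passed. So were tested genes with a lowest coordinate within 100 kb of that of a member, and genes overlapping a member. Other called genes of a list or locus that are named only by direction were named after their values were seen. Marker lists for hepatocytes, stellate cells, Kupffer cells, lipid-associated macrophages, sinusoidal endothelium, cholangiocytes, lymphocytes and adipocytes were summed per library. Positions and start windows come from RefSeq's GRCm38.p6 tables, which matched all 9 members and 91.6% of tested genes by symbol. Alternatives used DESeq2 1.42.0 and limma 3.58.1 (TPM with a pseudocount of 1 and at least 0.5 TPM in 4 libraries). The edgeR script was tested on simulated data. Figures were drawn with matplotlib 3.10.9. Some genes of the lists, and 3 of the 9 ratios, are not reported here; those lists were counted without them, which shifts their counts, so that no median is given, and p-values of ratios remain adjusted over all 9.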

Additional observations from a re-analysis of the deposited data

Results flagged for a closer look

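Among 54 groups of 4 libraries examined, 3 had a library far from the others by Dixon's criterion; chance alone marks about 1 in 20 groups. Angptl8 in WT replicate 3 stood at 87.0 CPM, while the other WT libraries lay between 34.3 and 40.2. Lipc in cKO replicate 1 stood at 101.8 CPM, while the other cKO libraries lay between 87.1 and 89.2. The log2 ratio of Lipc to Lpl in WT replicate 4 was 2.66, while the other WT libraries lay between 3.60 and 3.71.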

How the results depend on the processing

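Each count was recomputed under 21 alternatives, of which the older edgeR quasi-likelihood form was added after seeing the data. The number of members called higher, 0, became 1 (Scarb1) with library size alone, with no filter, with DESeq2, with a filter of 1 CPM in 4 libraries, with upper quartile factors and with library sizes that leave out the 20 most abundant genes, and 2 (with Abca1) on the TPM scale. The number called lower, 4, became 2 with library size alone and without the 20 most abundant genes. It became 3 with no filter, with upper quartile factors, on the TPM scale and with the older quasi-likelihood form. With the offset for effective length it stayed at 4, but with Lrp1 (adjusted p = 0.0256) in place of Angptl8 (adjusted p = 0.0509). Leaving out each library gave 0 to 1 higher and 2 to 4 lower, with 2 lower without cKO replicate 2 or 3 and 1 higher without cKO replicate 3. Over all genes, 2386 were called higher and 2352 lower, against 3621 and 1335 with library size alone, 3223 and 1442 without the 20 most abundant genes, and 3504 and 818 on the TPM scale. Angptl4 changed sign to 0.072 (library size alone), 0.045 (without the 20 most abundant genes) and 0.13 (TPM), and ran from -0.093 to 0.029 with a library left out. Dock6 changed sign to 0.015 (library size alone) and 0.15 (TPM), and ran from -0.22 to 0.020 with a library left out. With a library left out, the log2 ratio of Pltp to Lcat ran from -0.069 to 0.17, Abca1 to Scarb1 from -0.15 to 0.030 and Abca1 to Abcg1 from -0.23 to 0.0065. The cause of these changes was not tested. Correlations ran from 0.042 to 0.057 between same-numbered samples and from -0.104 to 0.092 between the others. Values this weak do not settle whether the replicate numbers pair the samples. With the replicate block, Pltp passed the threshold (adjusted p = 0.0433), and the members called lower were 5. Lpl was also called with the block. Over all genes, the block gave 2525 called higher and 2416 lower.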

Other observations

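Markers of further cell types moved unevenly between the groups. The part of these cells in the values of the members was not tested. All 3 called cholangiocyte markers (Krt7, Epcam and Cldn7, of 5 tested) were higher in cKO, with summed levels of 4.11 to 5.55 CPM in WT and 9.0 to 11.2 CPM in cKO. Of 6 lymphocyte markers, 3 were called higher (Cd3e, Cd8a and Nkg7), with sums of 3.53 to 7.43 CPM in WT and 5.32 to 10.1 CPM in cKO. None of the 7 sinusoidal endothelial markers was called by edgeR, although 2 were higher at an unadjusted p under 0.05 and DESeq2 and limma-voom each called 2 higher, with sums of 88.5 to 177 CPM in WT and 127 to 197 CPM in cKO.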
